A study of Rattus norvegicus and Bos taurus with 6 samples.

Results

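The nuclei described here are the adipocyte nuclei of rat subscapular brown adipose tissue (BAT). They were chosen by UMI counts, where a UMI marks 1 counted transcript. A nucleus was taken when its UMIs over 9 adipocyte genes (Plin1, Adipoq, Cidec, Lipe, Acsl1, Pparg, Plin4, Pnpla2 and Dgat2) came to at least 6 and to more than 2 times its UMIs over 12 genes of endothelial, stromal, immune and mural cells (Ptprb, Pecam1, Flt1, Mecom, Pdgfra, Dcn, Fbn1, Ptprc, Mrc1, Dock2, Notch3 and Myh11). The rule took 1590 of the 2699 BAT nuclei, or 58.9% (exact binomial 95% interval 57.0% to 60.8%), out of 19424 nuclei in the whole series. These 1590 are called rule-positive nuclei. The levels of the 21 genes of the rule are a description of the choice and are not a finding.

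The BAT came from male SS/HsdMcwiCrl (Dahl SS) rats housed at 22 °C. The tissue was snap frozen, and its nuclei went through the split-pool Parse chemistry, in which each round of mixing and dividing adds a barcode to the RNA held in a fixed nucleus. Subscapular BAT is 1 library, as is each of the other rat depots, which are thoracic aortic perivascular fat (taPVAT), mesenteric perivascular fat (mesPVAT, with a second library on the 10x Genomics platform) and retroperitoneal fat (RP), and the cow subcutaneous fat. Animal age is not given in the labels, and whether a library pooled tissue of several rats is not stated in the sources used here. With 1 library per depot and no replicate, no test between groups of nuclei or depots was made and no p-value is given. All intervals are exact 95% intervals and cover counting error only, and a gene is called higher or lower by a rule of size alone.

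Brown adipocytes store triglyceride in many small droplets and burn fatty acids to make heat. Noradrenaline acts on β-adrenergic receptors, cAMP activates lipolysis, and the released fatty acids feed mitochondria in which uncoupling protein 1 (UCP1) lets protons return across the inner membrane without ATP being made. The genes of this program are held on by PPARγ, PGC-1α, PRDM16, EBF2 and related factors, and the same cells take up glucose and fatty acids and make new fat.

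The gene most tied to brown adipocytes is Ucp1 (ENSRNOG00000003580), which was not part of the rule. Its promoter is shown because the results turn on this gene. It is the 250 bases before the annotated start in RefSeq, GRCr8 chr19:41721422-41721671, minus strand, written 5′ to 3′, with the 1 match to the letters TATAAA in capitals.
Ucp1: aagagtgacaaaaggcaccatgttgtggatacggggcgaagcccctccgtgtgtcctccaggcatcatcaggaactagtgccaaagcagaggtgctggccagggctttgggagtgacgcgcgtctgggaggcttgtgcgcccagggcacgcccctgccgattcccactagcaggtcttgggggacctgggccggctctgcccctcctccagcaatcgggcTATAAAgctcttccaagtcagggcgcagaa
The match lies 30 to 25 bases before the start. The letters TATAAA were found on the gene strand in 2696 of 33469 promoter windows of the same length (8.06%) and in 3 of the 22 windows found for the thermogenic genes listed further on (Cox8b, Dio2 and Ucp1). The letters AGGTCA, part of the sites that nuclear receptors bind, searched on both strands, were in 14.1% of all windows and were not in the Ucp1 window. The GC content of the Ucp1 window was 62%, against a median of 51.2% over all windows.

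The BAT library was joined from 2 sublibraries, and its nuclei passed through 3 wells (A1, A2 and A3) in the first barcoding round. Wells and sublibraries are portions of 1 library set apart by barcode, and they were not used as replicates. What each well held is not stated in the sources used here. No barcode was shared between any pair of libraries (0 shared barcodes). This was fixed in advance, since each Parse library had first-round wells of its own and 10x barcodes have another form. Nothing is read from it. Rule-positive nuclei held 4601193 UMIs, 72.8% of the library, with a median of 2286 UMIs per nucleus (range 425 to 31787) and 1271 genes. The 1109 other nuclei had a median of 950 UMIs and 691 genes. Of these, 372 nuclei met the mirrored rule, with at least 6 UMIs of the 12 genes and more than 2 times the adipocyte UMIs, and are called vascular, stromal or immune nuclei, with a median of 1454 UMIs. The remaining 737 nuclei, with a median of 770 UMIs, met neither rule and are called undecided. A deep nucleus reaches 6 UMIs of a gene set more easily than a shallow one. These depth differences, and the share of rule-positive nuclei, are therefore partly set by the rule. Among rule-positive nuclei, 777 (48.9%) held no UMI of the 12 other-cell genes, and the median was 1 such UMI, against 5 in the other nuclei. Mitochondrial genes made up 0.254% of the UMIs of rule-positive nuclei and 0.570% of those of other nuclei. A gene without a symbol (ENSRNOG00000087169) took 14.1% and 7.40% of their UMIs. Doublets were not searched for, and all deposited nuclei were kept, including 17 rule-positive nuclei above the upper limits on UMIs and genes that the study states and 10 above its mitochondrial limit.

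As a description of the choice, levels of the rule's adipocyte genes are given in CPM (UMIs of the gene summed over the nuclei of a set and scaled to a total of 1000000 UMIs). Plin1, the perilipin that guards the droplet surface, stood at 3230 CPM in rule-positive and 548 CPM in other nuclei. Acsl1, which activates fatty acids, stood at 3688 and 750 CPM, Lipe (hormone-sensitive lipase) at 1290 and 466 CPM, and Pparg, the master regulator of adipocytes, at 1536 and 613 CPM. Cidec, a fusion protein of lipid droplets, stood at 254 and 69.9 CPM and the adipokine Adipoq at 203 and 81.0 CPM. At the threshold, the 39 nuclei with exactly 6 adipocyte UMIs that met the rule held Ucp1 at 1842 CPM (1405 to 2371). The 33 nuclei with 5 such UMIs that met only the second condition held it at 2395 CPM (1809 to 3110).

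Ucp1 was 4.98-fold higher in rule-positive than in other BAT nuclei. It gave 12179 UMIs in rule-positive nuclei, or 2647 CPM (2600 to 2694), and 913 UMIs, or 532 CPM (498 to 567), in other nuclei, a ratio of 4.98 (4.65 to 5.33). Against the vascular, stromal or immune nuclei alone, where Ucp1 stood at 157 CPM from 117 UMIs, the ratio was 16.8 (14 to 20.4). The other nuclei therefore include undecided nuclei with more Ucp1 than the vascular, stromal or immune ones.

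Single nuclei were compared after each was thinned to 800 UMIs, which left out 103 rule-positive and 436 other nuclei that were shallower. A Ucp1 UMI was then present in 1180 of 1487 rule-positive nuclei, or 79.4% (77.2% to 81.4%). The share was 28.7% in undecided nuclei (102 of 356) and 12.3% in vascular, stromal or immune nuclei (39 of 317; 8.90% to 16.4%), cells that should lack the gene. Without thinning the shares were 88.1%, 29.9% and 19.6%, at median depths of 2286, 770 and 1454 UMIs.

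The wells gave unequal Ucp1 levels. In rule-positive nuclei, Ucp1 stood at 2043 CPM in sublibrary 1 and 2137 CPM in sublibrary 2 of well A1, at 2985 and 3180 CPM in well A2, and at 2793 and 2679 CPM in well A3. Well A1 was thus the lowest in both sublibraries and A2 the highest. In the other nuclei, A1 (355 and 624 CPM) and A2 (388 and 585 CPM) did not keep that order against A3 (673 and 584 CPM). The ratio of rule-positive to other nuclei was 4.23 (3.75 to 4.78) in A1, 6.12 (5.49 to 6.84) in A2 and 4.37 (3.87 to 4.96) in A3. The rule took 59.2%, 56.9% and 60.9% of the nuclei of A1, A2 and A3. The unnamed leading gene took 14%, 12.9% and 16.1% of their rule-positive UMIs, and Ucp1 without this gene and mitochondrial UMIs in the total kept the same order, at 2436, 3543 and 3272 CPM. Since what the wells held is not stated, they are named by barcode only. The part of the wells in the Ucp1 difference was not tested.

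**Figure D1:**
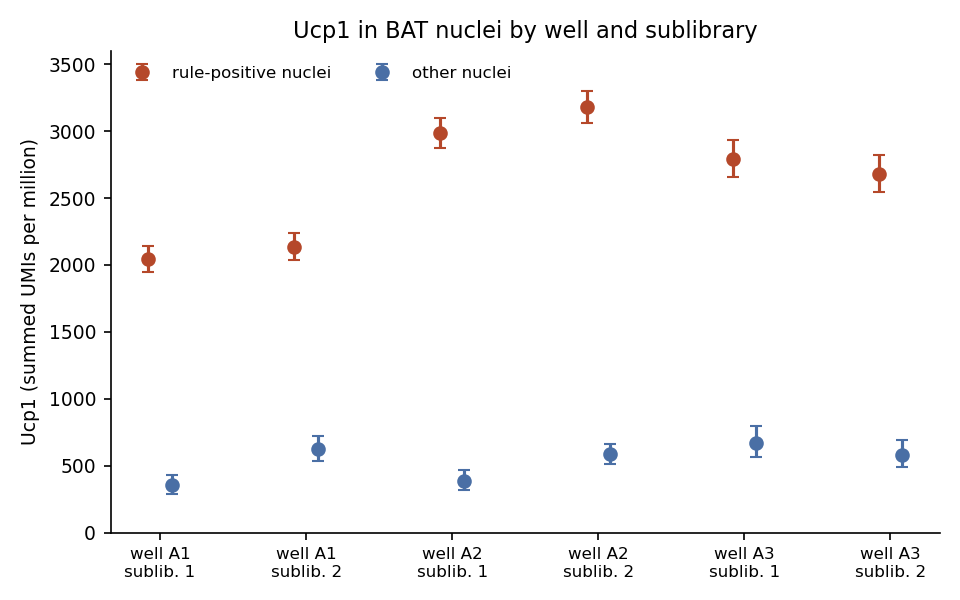
Ucp1 level (CPM, vertical axis from 0) in rule-positive and other BAT nuclei in each combination of sublibrary and first-round well, with exact Poisson 95% intervals as bars. The 6 rule-positive portions lie between 2043 and 3180 CPM, all above the 6 portions of other nuclei, which lie between 355 and 673 CPM.

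Over all genes, 10476 had at least 50 UMIs in the rule-positive and other nuclei together, with the 21 genes of the rule left out. Of these, 1197 (11.4%) were at least 2-fold higher in rule-positive nuclei and 2514 (24%) at least 2-fold lower, and the median ratio was 0.878. Against the vascular, stromal or immune nuclei, 1750 of 9496 genes (18.4%) were higher and 2078 (21.9%) lower. These shares are the background for the gene lists that follow. Since the nuclei were chosen by genes of the same nuclei, the lists are described by counts and medians only.

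Most thermogenic genes were raised. Of the program's 25 genes, 21 were measured, and 17 were at least 2-fold higher in rule-positive than in other nuclei, 1 was lower, and the median ratio was 3.82. Against the vascular, stromal or immune nuclei 18 of the 21 were higher, with a median of 9.19. Dio2, the deiodinase that activates thyroid hormone inside brown adipocytes, had 1012 UMIs (220 CPM) in rule-positive and 47 UMIs (27.4 CPM) in other nuclei, a ratio of 8.03 (6.00 to 11.0). By well, Dio2 stood at 196, 228 and 241 CPM in rule-positive and 15.3, 29.2 and 40.6 CPM in other nuclei, so it was the higher in rule-positive nuclei of each well.

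Nuclear receptors, coactivators and a fatty acid carrier of the program were also raised. Esrrg, an oestrogen-related receptor that drives mitochondrial genes, stood at 2303 against 385 CPM, a ratio of 5.98 (5.53 to 6.48), and in no well fell under 2203 CPM in rule-positive nuclei. Ppargc1b, a relative of PGC-1α, stood at 2949 against 593 CPM (4.97; 4.67 to 5.31) and Ppargc1a, which encodes the cold-induced coactivator PGC-1α itself, at 704 against 163 CPM (4.31; 3.82 to 4.89). Ppara, the receptor that turns on fatty acid oxidation, was 5.01-fold higher (4.53 to 5.56). Slc27a2, a fatty acid transport protein, was 6.19-fold higher (4.72 to 8.26). In each well, Ppargc1a was higher in rule-positive nuclei (620, 754 and 741 CPM) than in other nuclei (117, 146 and 250 CPM).

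Membrane proteins and structural genes of the program followed. Otop1, a proton channel of brown fat, was at 181 against 32.6 CPM (5.56; 4.24 to 7.42), and Kcnk3, a background potassium channel, at 386 against 75.7 CPM (5.10; 4.27 to 6.14). Gk, the glycerol kinase that lets brown adipocytes reuse glycerol, was 4.48-fold higher (3.96 to 5.08). Cidea, a droplet protein named as a brown marker, had 6473 UMIs (1407 CPM) in rule-positive and 648 UMIs (377 CPM) in other nuclei (3.73; 3.44 to 4.05).

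The factors that set brown identity were less far apart between the sets. Ebf2 stood at 1423 against 539 CPM (2.64; 2.46 to 2.83), Prdm16 at 1041 against 444 CPM (2.34; 2.17 to 2.53) and Nfia at 2209 against 986 CPM (2.24; 2.13 to 2.36). Each of these 3 is also known outside adipocytes. In A1, A2 and A3, Prdm16 stood at 1062, 1085 and 940 CPM in rule-positive nuclei and at 425, 434 and 487 CPM in other nuclei. Not all brown markers were raised. Cox8b, a subunit of cytochrome c oxidase, stood at 16.7 against 21 CPM, with a ratio of 0.798 and an interval (0.531 to 1.22) that spans 1. Zfp516 stood at 71.5 against 90.3 CPM (0.792; 0.652 to 0.965), and Eva1a was the 1 lower member, with 40 against 93 UMIs (0.160; 0.108 to 0.235). Elovl3, a fatty acid elongase often used as a brown marker, had 0 UMIs in the library, and a count of 0 allows up to 3 UMIs. Zic1, a marker of classical brown fat, had 15 UMIs in rule-positive nuclei and 1 in the others. The label of brown adipocyte therefore had Ucp1, Cidea, Ppargc1a, Dio2, Prdm16, Ebf2 and Kcnk3 on its side and not Elovl3 or Cox8b.

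**Figure D2:**
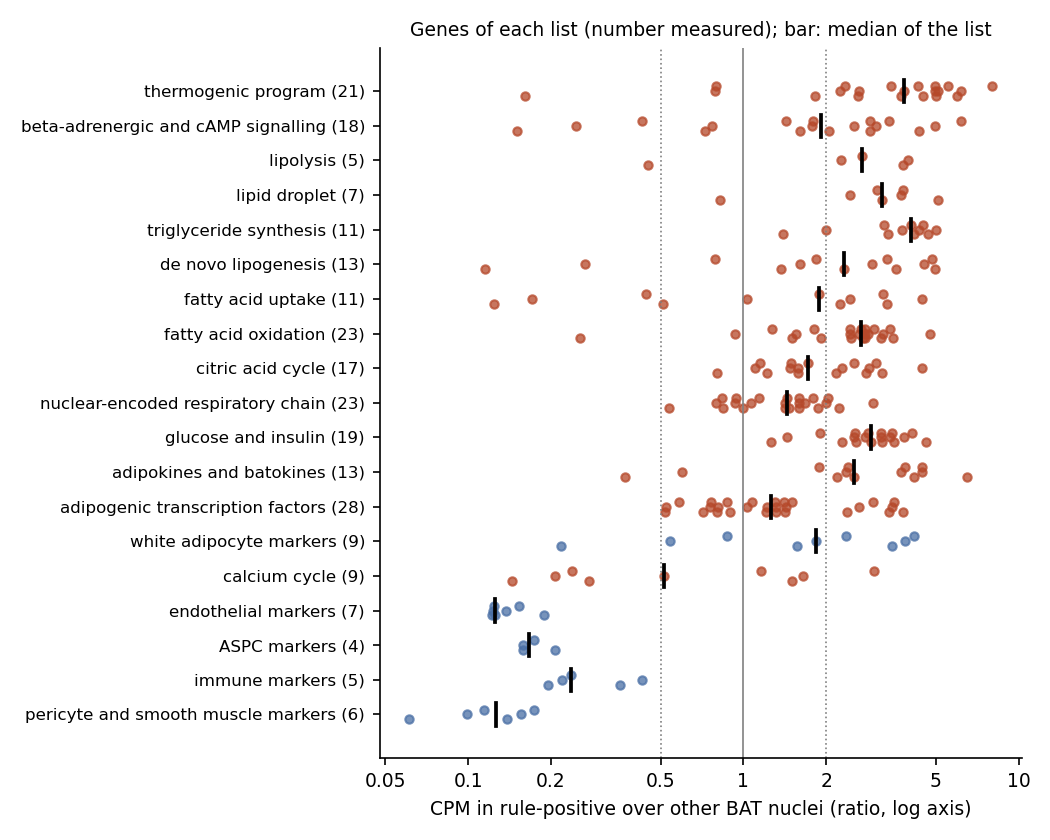
Ratio of summed CPM in rule-positive over other BAT nuclei (log axis) for each measured gene of the lists, with 1 point per gene, the list medians marked and the 2-fold limits drawn. The thermogenic program (median 3.82) and triglyceride synthesis (median 4.06) lie to the right, and the endothelial (0.126) and mural cell markers (0.126) to the left.

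Genes of the adrenergic signal that starts heat production were raised in part. Of 18 measured genes of β-adrenergic and cAMP signalling, 9 were at least 2-fold higher and 3 lower (median 1.92). Adrb3, the β3-adrenergic receptor of rodent adipocytes, stood at 427 against 69.3 CPM (6.16; 5.12 to 7.47), and at 342, 486 and 452 CPM in the rule-positive nuclei of A1, A2 and A3. Adrb1, the β1 receptor, was 2.52-fold higher (88.2 against 35.0 CPM). Prkar2b, a regulatory subunit of protein kinase A that adipocytes use, was 4.97-fold higher, the phosphodiesterase Pde3b, through which insulin lowers cAMP, was 4.35-fold higher, and Akap1, which anchors the kinase at mitochondria, was 3.37-fold higher. The 3 lower genes were the adenylyl cyclases Adcy4 (17.0 against 112 CPM; 0.151) and Adcy3 (0.428) and the phosphodiesterase Pde4b (0.246).

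Droplet and lipolysis genes outside the rule went the same way with 1 exception. Of 5 measured lipolysis genes, 4 were higher (median 2.69), among them Abhd5, the activator of triglyceride lipase (3.98), Plin5, the perilipin of oxidative cells (104 against 27.4 CPM; 3.8), and G0s2, the lipase inhibitor (2.69). Mgll, the monoglyceride lipase that ends the pathway, was lower, at 790 against 1754 CPM (0.451; 0.429 to 0.473). Of 7 lipid droplet genes 6 were higher and 0 lower (median 3.19), with Clstn3 at 5.12-fold.

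Triglyceride synthesis was raised nearly throughout. Of 11 measured genes, 9 were higher and 0 lower (median 4.06). Lpin1, the phosphatidate phosphatase, stood at 749 against 150 CPM (5.00), Agpat2 was at 4.70-fold and Dgat1 at 4.35-fold. Pck1, which makes glycerol phosphate from pyruvate-derived carbon in adipocytes, stood at 3470 against 856 CPM (4.06; 3.84 to 4.28). It was at 3999, 3469 and 2722 CPM in A1, A2 and A3.

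De novo lipogenesis had 7 of 13 genes higher and 2 lower (median 2.32). Acacb, the acetyl-CoA carboxylase at mitochondria whose product restrains fatty acid entry, stood at 1708 against 344 CPM (4.96). Acss2 (4.86), the regulator Srebf1 (4.54) and Acly (3.58) were higher, while Fasn, the fatty acid synthase itself, was 1.60-fold higher (1.45 to 1.77; 465 against 291 CPM) and did not reach the limit. The desaturases Fads1 (0.265) and Fads2 (0.115) were lower.

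Among fatty acid uptake genes, 5 of 11 were higher and 3 lower (median 1.88). Angptl4, an inhibitor of lipoprotein lipase, was 4.45-fold higher, and Lpl, that lipase, was at 2572 against 771 CPM (3.33; 3.15 to 3.53). Fabp4, the fatty acid binding protein of adipocytes and also of capillary endothelium, did not separate the sets, at 588 against 570 CPM (1.03; 0.959 to 1.11). Gpihbp1, which carries Lpl across capillary endothelium, was lower at 9.35 against 75.1 CPM (0.124), as was Fabp5 (0.171).

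Fatty acid oxidation had 16 of 23 genes higher and 1 lower (median 2.68), and against vascular, stromal or immune nuclei 21 of 23 were higher. Cpt1b, the muscle and brown fat form of the enzyme that admits long-chain fatty acids to mitochondria, stood at 1315 against 277 CPM (4.75; 4.33 to 5.23). The other form, Cpt1a, was the lower gene, at 8.04 against 31.5 CPM (0.256; 0.164 to 0.396). Slc25a20, the carnitine carrier, was 3.50-fold higher, Eci1 3.41-fold and Hadhb, of the trifunctional protein, 3.21-fold.

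In the citric acid cycle 8 of 17 genes were higher and 0 lower (median 1.72), with pyruvate carboxylase (Pc, 4.47), Sucla2 (3.20) and Sdhb (3.02) among the highest. The list of nuclear-encoded respiratory chain genes, which also holds some other mitochondrial genes, differed least among the metabolic lists. Only 3 of 23 were past 2-fold, with a median of 1.45. The 3 were Cyc1, of the chain itself (2.23), and from outside the chain Mfn2, a mitochondrial fusion protein (2.96), and Vdac1, the outer membrane channel (2.03). Against the vascular, stromal or immune nuclei 10 of the 23 were higher.

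Glucose and insulin genes were higher in 16 of 19 cases with 0 lower (median 2.90). Pdk4, the kinase that shuts off pyruvate oxidation, stood at 1764 against 384 CPM (4.59), Irs2 at 666 against 163 CPM (4.09), and Pfkfb3, which speeds glycolysis, was at 3.85-fold. The insulin-responsive glucose transporter Slc2a4 was at 48.0 against 15.1 CPM (3.17). Pdha1 (1.26) was among the 3 genes between the limits.

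Of 28 adipogenic transcription factors, 7 were higher and 0 lower (median 1.26), with Klf15 (3.8), the clock repressor Nr1d1 (3.54), Rxrg (3.47) and the thyroid hormone receptor Thrb (860 against 255 CPM; 3.37) leading. Ebf1, which also acts in stromal and immune cells, stood at 3414 against 3803 CPM (0.898). Of the 13 measured adipokines and batokines, 10 were higher and 1 lower (median 2.51). Nrg4, a neuregulin released by brown fat, stood at 528 against 81.5 CPM (6.48; 5.46 to 7.74) and at 475, 557 and 557 CPM in the 3 wells. The angiogenic factor Vegfa was at 1740 against 389 CPM (4.47), and Retn at 219 against 56.5 CPM (3.87). Lep, which encodes leptin and marks white adipocytes, was at 31.5 against 7.57 CPM, from 145 and 13 UMIs (4.16; 2.36 to 8). The lower gene was Nrg1 (0.370).

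Most single genes of other heat-producing cycles were not raised. The summed level of the calcium cycle list was still higher, at 5902 CPM in rule-positive and 2753 CPM in other nuclei, with Itpr2 as its largest part. Of 9 measured calcium cycle genes, 1 was higher and 4 lower (median 0.513). The higher gene was Itpr2, a calcium release channel (4173 against 1401 CPM; 2.98), Atp2a2, the calcium pump SERCA2, was 1.5-fold higher, and Ryr3 (0.206) and Atp2a3 (0.145) were lower. In the creatine cycle 2 of 7 genes were measured, the transporter Slc6a8 (1.52) and the kinase Ckb (14.1 against 31.5 CPM; 0.449).

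White adipocyte markers were present and in part raised. Of 13 listed genes 9 were measured, and 4 were higher and 1 lower (median 1.84). Their summed level was 635 CPM in rule-positive, 447 CPM in other and 353 CPM in vascular, stromal or immune nuclei. Lep and Retn were given above, Npr3 was 3.46-fold and Agt 2.36-fold higher, and Trabd2b was lower (0.218). Slc7a10, a white adipocyte amino acid transporter, had 59 and 14 UMIs (1.57; 0.867 to 3.05). The white markers Tcf21 and Hoxc10 had 0 UMIs in the whole library, and Hoxc9 had 3 UMIs in rule-positive and 0 in other nuclei. Counts this low do not tell the sets apart, so nothing is read from them.

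Markers of the other cell types in the tissue were lower where measured, beyond the genes the rule used. All 7 endothelial markers outside the rule were at least 2-fold lower (median 0.126), with Kdr at 0.124 and Cdh5 at 0.153. So were the 4 markers of adipose stem and progenitor cells (ASPC; median 0.166), the 5 immune (0.237) and the 6 pericyte and smooth muscle markers (0.126). Summed over each list with the rule's genes included, endothelial markers stood at 820 against 5809 CPM, ASPC markers at 254 against 1536 CPM, immune markers at 115 against 503 CPM and pericyte and smooth muscle markers at 334 against 3303 CPM. Markers of Schwann cells did not follow, with a sum of 655 against 204 CPM. That sum was carried by Mbp, the myelin basic protein gene, at 629 against 137 CPM (4.59; 4.02 to 5.27), while Prx was lower (0.203). Of 5 skeletal muscle markers 3 were lower, including Ttn (0.110) and Neb (51.1 against 405 CPM; 0.126), and Actn2 was higher at 97.4 against 21 CPM (4.64; 3.30 to 6.72). Of 3 measured cell cycle genes all were lower (median 0.241). No mesothelial marker reached 50 UMIs.

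Among all genes with a symbol and at least 100 UMIs in rule-positive nuclei, the highest ratios were those of Trib3, a pseudokinase of the stress response (9.40; 126 and 5 UMIs; 3.92 to 29.5), MGC93861 (9.33), Popdc2, a cAMP-binding membrane protein (8.79; 165 and 7 UMIs), Dmrt2, a developmental transcription factor (8.51; 114 and 5 UMIs), and Magel2 (8.19; 417 and 19 UMIs). Dio2, Nrg4, Slc27a2, Adrb3 and Esrrg were also among the 15 leading genes, together with Neu2 (6.94), Nudt8 (6.47), Calr3 (6.09; 1323 and 81 UMIs) and the nucleoside transporter Slc29a1 (6.09). Of the 15 leading genes, 5 (Dio2, Nrg4, Slc27a2, Adrb3 and Esrrg) were in the lists on adipocyte function. The share of listed genes among all genes with enough UMIs is not given, so nothing is read from this count. At the low end stood Tagln (0.054; 20 and 137 UMIs), Dkk2 (0.057), Acta2 (0.061; 62 and 380 UMIs) and Bcam (0.065), followed by Nexn, Tpm2, Casq2, Nxpe1, Esam and C7 (0.074 to 0.080).

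Rule-positive nuclei were not alike in Ucp1. After thinning to 800 UMIs, they held a mean of 2.12 Ucp1 UMIs (SD 1.87 over 1487 nuclei), with a median of 2 and a maximum of 12. No Ucp1 UMI was found in 307 nuclei (20.6%), where a Poisson distribution of the same mean gives 178 (12.0%). The variance was 1.64 times the mean (the Fano factor, which is 1 under Poisson counting). Among 22 genes of like mean UMIs, Ucp1 ranked 3, with a median of 1.42 and a range of 1.10 to 2.25, and among 1453 genes it ranked 23.

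**Figure D3:**
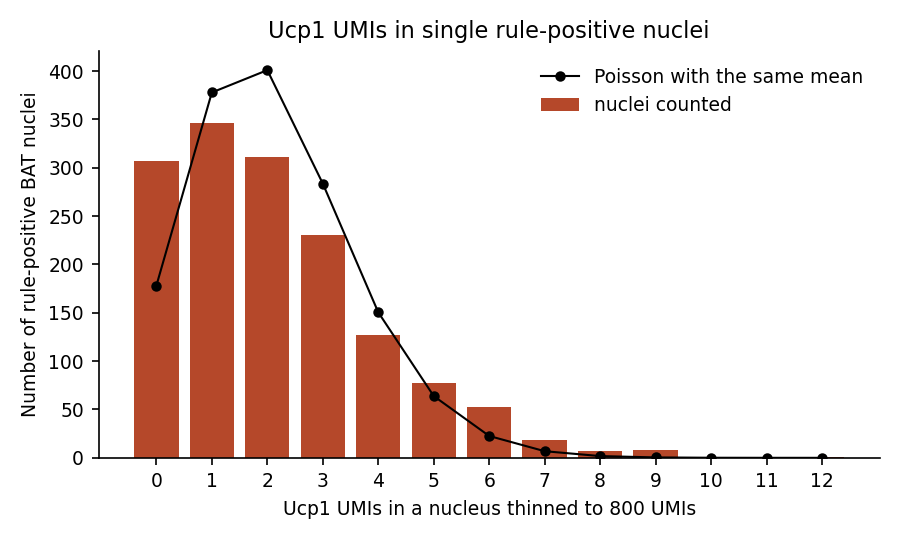
Number of rule-positive BAT nuclei (vertical axis) by Ucp1 UMIs after thinning each to 800 UMIs (horizontal axis), with the Poisson counts of the same mean as points. The 307 nuclei at 0 exceed the Poisson count of 178.

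Other genes varied more among rule-positive nuclei. Among the highest Fano factors of genes with a symbol were those of Kcnip1, which encodes a potassium channel partner (3.94), Apoo, which encodes a protein of the mitochondrial cristae (3.73), the mitochondrial genes Mt-co1 (3.40), Mt-cyb (2.82) and Mt-atp6 (1.78), the growth factor Igf1 (2.15), Fasn (2.15), Dst (2.04) and Pip5k1b (1.99). Apoo reached 21 UMIs in a nucleus while 43.8% of nuclei held any. Kcnip1 was held by 6.93% of nuclei, with up to 11 UMIs.

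To keep the counting noise that enters the Ucp1 order out of the levels measured, the UMIs of each nucleus were split at random into 2 portions. The order itself still carries counting noise of the binning portion. The binning portion was thinned to 400 UMIs and set the Ucp1 bin, and levels were read from the measured portion. Bins held nuclei with 0, 1, 2 or 3 to 8 Ucp1 UMIs in the binning portion, and numbered 642, 448, 235 and 166 nuclei. A further 99 nuclei were too shallow, and 1417 of the 1491 binned nuclei lay within 1 UMI of a bin edge, so a bin is a range and not a kind of cell. Ucp1 in the measured portion stood at 2047 CPM (1956 to 2141) in the lowest bin, 2746 and 3235 CPM in the middle bins and 3946 CPM (3699 to 4205) in the highest, which was 1.93-fold (1.78 to 2.08) above the lowest. With 10 other random splits the ratio was 1.88 to 2.13. With 200, 600 and 1000 UMIs in the binning portion it was 1.74, 2.17 and 2.33, so its size depended on the depth used for binning. Nuclei of a low bin therefore still held Ucp1 far above the 157 CPM of vascular, stromal or immune nuclei.

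Median depth differed little over the bins, while other-cell UMIs and wells were uneven. Median UMIs were 2244, 2549.5, 2558 and 2462, and the share of nuclei with none of the 12 other-cell UMIs was 46.0%, 50.2%, 45.1% and 47.6%. The summed level of these 12 genes in the measured portion was 893 CPM (832 UMIs) in the lowest and 545 CPM (131 UMIs) in the highest bin, a ratio of 0.610 (0.493 to 0.790 over the other splits). The part of other-cell RNA in the differences between bins was not tested. Well A1 made up 41.9%, 38.6%, 31.5% and 17.5% of the bins. Bins were also made again within each well, with edges set by the nuclei of that well. The highest bin then began at 2 Ucp1 UMIs in A1 and at 3 in A2 and A3. The highest over lowest ratio of Ucp1 was 1.36 in A1, 1.73 in A2 and 2.26 in A3. The spread was present in each well, but its size in A1 rests on another cut and cannot be set beside the others. Mitochondrial UMIs made up 0.279% in the lowest and 0.207% in the highest bin.

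Between the highest and lowest Ucp1 bins, 210 of 4124 genes (5.09%) were at least 1.5-fold higher and 490 (11.9%) at least 1.5-fold lower, with a median ratio of 1.01. In the thermogenic program, 15 of 17 measured genes had a ratio above 1 (13 to 17 in the other random splits), but 0 passed 1.5-fold in either direction and the median was 1.23. Ppargc1b stood at 2735, 3097, 3161 and 3359 CPM from the lowest to the highest bin, a ratio of 1.23 (1.13 to 1.33). Otop1 stood at 164, 185, 203 and 245 CPM (1.49; 1.09 to 2.03). Both stood higher at each step. Kcnk3 stood at 339, 404, 381 and 503 CPM (1.48; 1.19 to 1.83), Gk at 587, 805, 821 and 832 CPM (1.42; 1.20 to 1.67) and Ppargc1a at 634, 776, 755 and 807 CPM (1.27; 1.08 to 1.5). These sat lowest in the lowest bin without an even rise. The ratios of Otop1 and Kcnk3 were the highest of the 11 random splits. Over these splits they ran from 0.814 (median 1.25) for Otop1 and from 0.918 (median 1.26) for Kcnk3. Those of Ppargc1b (1.18 to 1.34), Gk (1.08 to 1.45) and Ppargc1a (1.22 to 1.48) stayed above 1 in every split.

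Esrrg stood at 2159, 2364, 2394 and 2470 CPM, a smaller ratio (1.14; 1.04 to 1.25) with an interval above 1. For some other marker genes of brown fat the interval spanned 1. Cidea had a ratio of 1.10 (0.977 to 1.25) and Ebf2 of 1.03 (0.912 to 1.16). Dio2 stood at 177, 253, 267 and 162 CPM (0.92; 0.63 to 1.3). Over the 11 random splits its ratio ran from 0.916 to 1.88 with a median of 1.36, so this order depended on the split. Triglyceride synthesis (12 genes, median 1.19) and fatty acid oxidation (20 genes, median 1.16) each had 0 genes past 1.5-fold. The rule's 9 adipocyte genes had a median of 0.998, with Adipoq lower (0.65; 0.586 to 1.17 over the random splits).

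The genes furthest apart between the bins rested on few UMIs. The 12 highest ratios were those of Hgs (3.10; 24 and 30 UMIs), Cherp, Sesn3, Tmem131l, Preb, Ubqln1, Ift81, Pnpla3, Timm9, Smarca5, Dera and Lypla1 (2.03), and 0 of these 12 were 1.5-fold higher in each of the 11 random splits. The 12 lowest were those of Ptpre (0.079; 1 and 49 UMIs), Kcnip1 (0.122; 8 and 254 UMIs; 0.052 to 0.244), Abcc9, Sntb1, Lmo7, Kcnn3, Trpm3, Kitlg, Neb, Esr1 (0.158), Rnf220 and Cyp2e1 (0.161). Of these, 2 (Kcnip1 and Sntb1) were 1.5-fold lower in every split. Over all 3506 genes measured in every split, 0 were always higher and 24 always lower.

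Those 24 genes, chosen after their values were seen, included Aox3, B3galt1, Cadm2, Car3, Clmp, Col3a1, Col5a3, Dst, ENSRNOG00000073592, Gsn, Hdac9, Igf1, Kcnip1, Kcnq5, Kif15, Lsamp, Plcb1, Rasa3, Slc8a1, Slco2b1, Sntb1, Tshr and Ttc3. Kcnip1 had a median ratio of 0.111 over the splits (0.057 to 0.169). Igf1, which encodes insulin-like growth factor 1, had 0.114 (0.057 to 0.269), and Tshr, the thyrotropin receptor gene that adipocytes also express, 0.167 (0.069 to 0.270). Markers of other cells lay low in the high Ucp1 bin as well. The 8 measured endothelial markers had a median of 0.526, with 6 at least 1.5-fold lower (0 to 7 over the other splits), and both ASPC and 2 of 3 pericyte and smooth muscle markers were lower. Their part in the 24 genes was not tested. Kif15 (median 0.396) stood at 459 CPM in well A1 and at 9.18 and 7.04 CPM in A2 and A3, and the share of A1 was itself lower in the high bin, as given above. Of the 23 genes besides Kcnip1, 14 were at least 2-fold lower in rule-positive than in other nuclei, where 24% of all genes were. In the Kcnip1 nuclei described next 18 were at least 2-fold higher, where 3.81% of all genes were, but both the genes and that group were picked from the same nuclei low in Ucp1, so nothing is read from this count.

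A small set of rule-positive nuclei held Kcnip1 and little Ucp1. This grouping was chosen after the values were seen, so the Kcnip1 level is the choice itself and no finding. Kcnip1 was also among the lowest genes of the high Ucp1 bin in these same nuclei. Low Ucp1 in the group, and low levels of thermogenic genes that go with Ucp1, are therefore partly set by the choice. They are given as a description. After thinning to 800 UMIs, 30 nuclei (2.02%) held at least 3 Kcnip1 UMIs, 73 (4.91%) held 1 or 2 and 1384 (93.1%) held none. With other random draws the first group numbered 27 to 36. The 30 nuclei came from all wells (11, 13 and 6 from A1, A2 and A3) and both sublibraries (16 and 14). Their median depth was 1407 UMIs, against 1930 and 2462.5 in the other groups, and their median adipocyte UMIs over the rule's 9 genes were 19, against 23 and 30.

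Ucp1 stood at 502 CPM (336 to 721; 29 UMIs) in the 30 nuclei, at 1458 CPM (1288 to 1644) in the 73 nuclei and at 2740 CPM (2691 to 2790) in the 1384 nuclei. The ratio of the first to the last was 0.183 (0.123 to 0.263). The level in the smallest group depended on the random draw, since with the 10 other draws it ran from 109 to 570 CPM and the ratio from 0.0398 to 0.208. At 800 UMIs, 6 of the 30 nuclei held a Ucp1 UMI (20%; 7.71% to 38.6%), against 38.4% and 82.8%. The interval for the 30 nuclei covered the 12.3% of the vascular, stromal or immune nuclei. Nuclei of the 3 groups held no UMI of the 12 other-cell genes in 56.7%, 45.2% and 47.3% of cases.

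Against the nuclei without Kcnip1, 83 of 2177 genes with enough UMIs (3.81%) were at least 2-fold higher in the 30 nuclei and 376 (17.3%) lower, with a median of 0.864. Of 17 measured thermogenic genes, 12 were at least 2-fold lower and 0 higher (median 0.356). Ppara (0.257), Ppargc1b (0.261; 0.191 to 0.349), Cidea (0.264; 22 and 6192 UMIs), Gk (0.282), Ebf2 (0.343), Prdm16 (0.356) and Esrrg (0.416) were lower. Ppargc1a (0.69; 0.461 to 0.993) and Kcnk3 (0.790) were nearer to 1. Of 18 fatty acid oxidation genes 9 were lower, as were 7 of 12 citric acid cycle genes and 0 genes of either list were higher.

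Lists on lipid storage were lower in part in the 30 nuclei and had 0 genes higher. Of 4 measured lipid droplet genes 3 were at least 2-fold lower (median 0.391), as were 5 of 10 de novo lipogenesis genes (0.608) and 3 of 11 triglyceride synthesis genes (0.771). The 9 adipocyte genes by which all these nuclei were taken are given as a description of the choice. Cidec (2.82; 1.99 to 3.88), Adipoq (2.00; 1.24 to 3.04), Plin4 (1.5), Pparg (1.22), Plin1 (1.12; 0.971 to 1.28) and Lipe (1.10; 0.868 to 1.36) had ratios above 1, and Pnpla2 (0.933), Acsl1 (0.778; 0.664 to 0.907) and Dgat2 (0.635) below 1.

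Only 2 white adipocyte markers, Retn and Npr3, had enough UMIs for the counts above. Of these, 0 passed 2-fold in either direction (median 1.26). The others rested on fewer UMIs, and some are given as values. Nrip1 gave 30 UMIs in the 30 nuclei and 336 UMIs in the 1384 (6.64; 4.41 to 9.66), and lay in 20 of the 30. Slc7a10 gave 15 UMIs in the 30 nuclei and 24 UMIs in the 1384 (46.5; 22.7 to 92.3), spread over 10 nuclei. Nnat, an imprinted gene of adipocytes and neurons, gave 19 and 75 UMIs (18.8; 10.7 to 31.5) and lay in 7 nuclei. Agt, the angiotensinogen gene, gave 16 and 91 UMIs (13.1). Lep gave 5 and 121 UMIs (3.07; 0.980 to 7.37), with an interval that spanned 1. Npr3, which had enough UMIs, was at 0.555 (0.180 to 1.3), and its interval spanned 1 as well. Retn, Tbx15 and Trabd2b are not given as numbers for these nuclei, so the markers named do not stand for the whole list.

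Genes that led the Kcnip1 nuclei, chosen after their values were seen, included Crispld2 (32.1; 22 and 51 UMIs; 18.5 to 53.8), Tshr (23.1; 64 and 206 UMIs; 17.2 to 30.7), Aox3 (19.1), Cers6 (15.5), B3galt1 (14.6), Igf1 (14.1; 63 and 332 UMIs), Car3 (9.50) and the oestrogen receptor gene Esr1 (6.20). Tshr UMIs lay in 21 and Igf1 UMIs in 22 of the 30 nuclei. Coro6 (0.110; 4 and 2693 UMIs), Tfrc, the transferrin receptor gene (0.096), and Zfhx2 (0.052; 1 and 1438 UMIs) were lower.

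**Figure D4:**
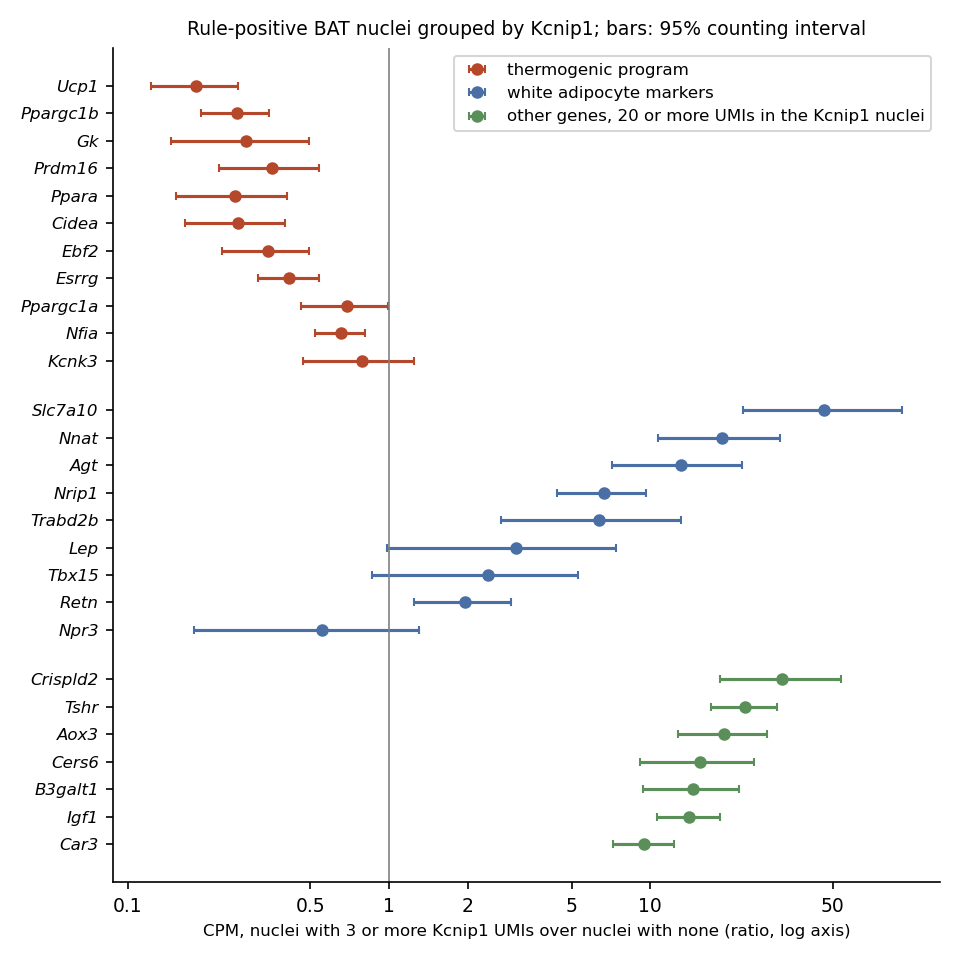
Ratio of summed CPM in the 30 BAT nuclei with at least 3 Kcnip1 UMIs over the 1384 without (log axis), for thermogenic genes, white adipocyte markers and the 7 leading genes that are outside these 2 lists and have at least 20 UMIs in the 30 nuclei, with exact 95% intervals as bars. Ucp1 lies at 0.183 and Slc7a10 at 46.5.

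The same rule took 298 nuclei of the library labelled mesPVAT on the Parse platform, a white depot, and the levels of these genes there are given as values side by side. Kcnip1 stood at 1115 CPM in its rule-positive nuclei, 6.99 times the level in BAT rule-positive nuclei, Tshr at 548 CPM (6.35 times), Igf1 at 371 CPM (3.29 times), Nnat at 776 CPM (27.9 times), Slc7a10 at 244 CPM (19.0 times) and Lep at 247 CPM (7.84 times). Ucp1 stood at 34.8 CPM (0.0132 times). Aox3 (19.0 CPM; 0.40 times), Retn (111 CPM; 0.507 times) and Tbx15 (31.7 CPM; 0.666 times) were lower there as well. The mesPVAT rule-positive nuclei had a median of 918.5 UMIs, against 2286 in BAT. The study reports no clear inflection point for this library, which made true nuclei hard to tell from background. The share of all genes higher in mesPVAT than in BAT nuclei is not given, so nothing is read from these picked genes. In the rule-positive nuclei of taPVAT, a brown depot, Tshr stood at 102 CPM, Igf1 at 201 CPM and Aox3 at 150 CPM. Where in the dissected tissue the 30 nuclei lay is not recorded in these data.

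BAT was set beside taPVAT, the other brown depot, where the same rule took 1278 of 2708 nuclei (47.2%) with a median of 2126 UMIs. Adipocyte nuclei of the depots were close for most genes. Of 10858 genes measured, 53 (0.488%) were at least 2-fold higher in BAT and 219 (2.02%) at least 2-fold lower. Of 21 thermogenic genes, 0 were past 2-fold, with ratios of 0.682 to 1.91 and a median of 1.01. Ucp1 stood at 2647 CPM in BAT and 2363 CPM (2312 to 2414) in taPVAT, a ratio of 1.12 (1.09 to 1.15). By BAT well the ratio was 0.884 in A1, 1.3 in A2 and 1.16 in A3, so its direction changed with the BAT well taken. The taPVAT nuclei were kept whole in these ratios, and their own wells were not compared. Wells are not replicates, so no verdict on a depot difference in Ucp1 is drawn. Ratios were 1.28 for Cidea, 1.24 for Ppargc1b, 0.89 for Ppargc1a, 0.81 for Dio2 and 0.68 for Acot11. No other list on adipocyte function had more than 1 gene past 2-fold, and de novo lipogenesis had a median of 0.821, with Fasn at 465 CPM in BAT and 855 CPM in taPVAT (0.54).

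A few genes stood far apart between the depots. Dmrt2 gave 114 UMIs in BAT (24.8 CPM) and 4 in taPVAT (1.14 CPM), a ratio of 21.7 (8.26 to 81.2), and stood at 22.9, 24.3 and 28.2 CPM in the rule-positive nuclei of A1, A2 and A3. Tbx15, a developmental factor of adipose depots that was also on the white list, gave 219 and 64 UMIs (2.61; 1.97 to 3.50) and stood at 52.0, 48.1 and 40.5 CPM in the wells. Lmx1b, a limb and hindbrain factor (2.59), Hrh2, a histamine receptor (2.51), Cd40 (2.63), Itprip (2.67), Gtpbp3 (3.11), Ptrh2 (2.86), Adam11, Zfp316 and Hnrnpa3 were the other leading genes. Without well A1, Gtpbp3 had a ratio of 2.08 and Hnrnpa3 (ENSRNOG00000027006) of 1.03, and the latter gave 39, 11 and 3 UMIs in A1, A2 and A3. Kif15, a mitotic kinesin, also had a ratio (16.7) that came from well A1. It stood at 459 CPM in A1 and at 9.18 and 7.04 CPM in A2 and A3, was also highest in A1 among the other BAT nuclei (805, 49.7 and 38.3 CPM), and had a ratio of 0.839 without well A1.

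On the taPVAT side, Foxp2, a forkhead factor, stood at 35.0 CPM in BAT and 300 CPM in taPVAT, from 161 and 1052 UMIs (0.117; 0.098 to 0.138), and at 37.2, 34.6 and 32.6 CPM in the BAT wells. Aspg was at 46.7 and 255 CPM (0.183) and Acsl5, an acyl-CoA synthetase, at 35.4 and 148 CPM (0.239). The remaining genes of the 12 lowest were Myh6, a cardiac myosin (0.071; 8 and 86 UMIs), Slc9b1 (0.168), Aebp1 (0.186), Lilrb4, Crocc2, C1s, Hba-a2, Ttn (0.237) and Hbb, among them genes of stroma, blood and muscle. Other-cell genes moved with the depot in these nuclei, since 4 of 5 measured ASPC markers and 2 of 6 immune markers were at least 2-fold lower in BAT, and 48.9% of BAT against 35.8% of taPVAT rule-positive nuclei held none of the 12 other-cell UMIs. Myh6 stood at 140 CPM in the other nuclei of taPVAT. The part of other-cell RNA in these differences was not tested.

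**Figure D5:**
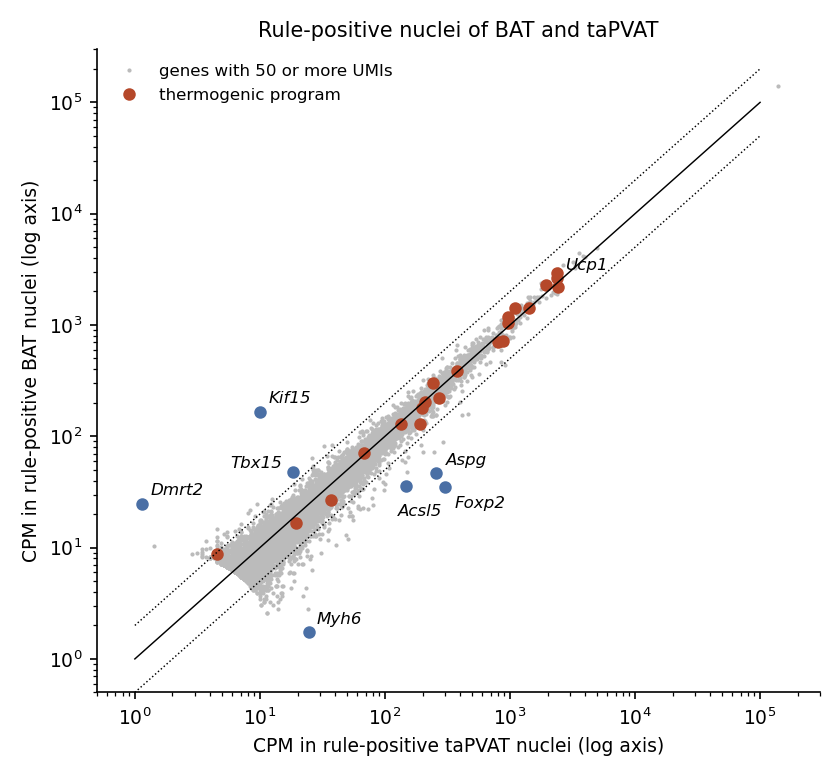
Level of each gene with at least 50 UMIs (CPM, both axes on a log scale) in rule-positive nuclei of taPVAT (horizontal) and BAT (vertical), with the line of equality and the 2-fold limits. The thermogenic genes lie within the limits, Dmrt2, Tbx15 and Kif15 above them and Foxp2, Aspg, Acsl5 and Myh6 below.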

How the data were processed

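Nuclei of male Dahl SS rat subscapular BAT were sequenced as 1 Parse library. Reads of rat origin were aligned to GRCr8 by split-pipe, and the authors deposited raw UMI counts per gene for every barcode kept as a nucleus. All deposited barcodes were used, and 0 sample columns were left unused. UMIs were summed over nuclei and scaled to CPM. Genes with at least 50 UMIs in the sets compared were kept, and limits of 2-fold, or 1.5-fold between Ucp1 bins, replaced a test, since each depot has 1 library. Poisson, conditional binomial and Clopper-Pearson intervals at 95% cover counting error only. The steps were tested on simulated data and run with scipy 1.17.1, numpy 2.4.6, matplotlib 3.10.9 and pandas 2.3.3 under Python 3.11.15.

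The nuclei, gene lists and alternatives were chosen with earlier results of these data known. Named are the rule's genes and Ucp1, the 4 highest and 2 lowest genes of each list and those a role sentence needs, the 15 highest and 10 lowest genes against other nuclei, 12 each way between Ucp1 bins and between depots, and the 10 highest Fano factors. Wells, the Kcnip1 groups, the 10 other random splits and the genes taken from them were chosen after values were seen. Bmp8b, Cd36, Cox5a, Gpat3, Lyve1, Mlxipl and Plin3 were not analysed here. Reads shared by overlapping or near-identical genes could not be separated. Some genes that this rule names are not reported here.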

Additional observations from a re-analysis of the deposited data

Results flagged for a closer look

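Ucp1 was also counted in rat libraries outside the comparisons above, and is given here as values. The library labelled mesPVAT on the Parse platform held 105 Ucp1 UMIs over all nuclei, of which 11 lay in its 298 rule-positive nuclei (34.8 CPM; 17.4 to 62.4) and 94 in the others (70.1 CPM; 56.6 to 85.8). The library labelled RP held 76 Ucp1 UMIs, with 1 in its 18 rule-positive nuclei and 75 in the others (89.9 CPM; 70.7 to 113). In both, Ucp1 in the other nuclei was below the 157 CPM of vascular, stromal or immune nuclei of BAT. The 10x mesPVAT library held 0 in rule-positive nuclei and 1 in the others. The source of these UMIs was not tested.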

How the results depend on the processing

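Each value rests on 1 library, so the alternatives cannot be read as a spread between animals. Depth limits single-nucleus values to about 800 UMIs. No paired analysis was possible because the results come from no test and each depot is 1 library. Alternatives by well, by Kcnip1, with 1000 UMIs in the binning portion and with 10 other random splits were added after seeing the data. The causes of the changes were not tested.

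The share of rule-positive nuclei (58.9%) became 53.5% with at least 10 adipocyte UMIs, 54.9% at more than 4 times and 28.8% with no other-cell UMI, 61.5% and 56.3% in sublibraries 1 and 2, and 56.9% and 60.9% in wells A2 and A3. The Ucp1 ratio to other nuclei (4.98) became 4.11, 3.32 and 1.57 under those 3 rules, where the last compares with many adipocyte nuclei, 5.38 with the study's nucleus filters, 5.77 and 4.5 by sublibrary, 16.8 against vascular, stromal or immune nuclei, 5.35 without the unnamed top gene and mitochondrial genes, and 4.23, 6.12 and 4.37 by well. The thinned Ucp1 share (79.4%) became 64.8% at 500 UMIs, 76.7% in A1 and 83.6% in A2.

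The number of genes higher than in other nuclei (1197) became 37 with no other-cell UMI in the rule and 508 at 3-fold. The number lower (2514) became 1653 in sublibrary 1, 4241 at 20 UMIs or more, 1024 at 200 or more and 1519 at 3-fold. Against vascular, stromal or immune nuclei, the lower genes became 0 for the creatine cycle, 0 for de novo lipogenesis and 1 for transcription factors. They became 3 for immune, 0 for Schwann, 0 for lymphatic and 1 for cell cycle genes. The higher genes of the respiratory chain list became 10.

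The ratio of Ucp1 between bins (1.93) became 1.74, 2.17 and 2.33 with 200, 600 and 1000 UMIs in the binning portion, 1.36, 1.73 and 2.26 in A1, A2 and A3, and 2.10, 2.13 and 2.12 in 3 of the other splits. Bin edges were set anew under each setting, so the bins did not all cover the same Ucp1 counts. The Fano factor (1.64) became 1.35 in A1, 1.74 in A2, 1.75, 1.74, 1.73 and 1.74 in 4 splits, and 1.55 without nuclei holding Kcnip1. Genes higher in the high Ucp1 bin (210) numbered 87 with no other-cell UMI, 627 at 20 UMIs and 17 at 200. Genes lower (490) numbered 155, 1493 and 33 under the same settings, 273 and 249 by sublibrary and 298 without A1.

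The ratio of Ucp1 to taPVAT (1.12) reversed to 0.884 in A1 and was 1.3 and 1.16 in A2 and A3. Genes higher in BAT (53) numbered 241 at 20 UMIs, 6 at 200, 6 at 3-fold and 34 without A1. Genes lower (219) numbered 73 with no other-cell UMI, 98 in sublibrary 1, 585 at 20 UMIs, 43 at 200 and 46 at 3-fold.

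Single genes reversed as follows. With no other-cell UMI in the rule, the bin ratios became 0.792 for Preb, 1.19 for Ptpre, 1.36 for Abcc9, 2.38 for Lmo7 and 1.36 for Neb, and the taPVAT ratio of Hrh2 became 0.690. With 200 and 600 UMIs in the binning portion, Hgs became 0.522 and 0.746 and Dera 0.893 and 0.895, and Preb became 0.947 at 600. Kif15 became 0.839 without A1.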

Other observations

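Beyond Ucp1, 2 genes chosen after their values were seen differed between the first-round wells of BAT. Kif15, a mitotic kinesin, stood at 551 CPM over all nuclei of well A1 and at 20.1 and 15.8 CPM in A2 and A3, while the wells of the other Parse libraries lay between 7.69 and 39.3 CPM. Spsb1, an adaptor of a ubiquitin ligase, stood at 153 CPM in the rule-positive nuclei of A1 and at 18.4 and 31.7 CPM in A2 and A3. Over 5888 genes, 8 were at least 2-fold higher and 2 lower in both sublibraries of A1 than in the other wells, against 1 and 4 in A2 and 3 and 25 in A3.

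Apoo, which had the second highest Fano factor among named genes, differed less between wells. It stood at 1191, 1537 and 1640 CPM in the rule-positive nuclei of A1, A2 and A3, and at 450 CPM in the 30 Kcnip1 nuclei against 1459 CPM in nuclei without Kcnip1 (0.308; 0.201 to 0.452). Pdk4 was lower there too (398 against 1826 CPM; 0.218).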
